A study of Homo sapiens with 8 samples.

Results

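The 32 genes described here form the program of cholesterol and fatty acid synthesis that is controlled by the sterol regulatory element-binding proteins (SREBPs). They comprise 6 regulators and carriers, 18 enzymes of the sterol branch and 8 enzymes of the fatty acid branch, and were taken as all probes whose gene name on the array is a member. The 41000 probes of the array carried all 32 genes on 51 probes. All 32 had at least 1 probe above local background on at least 2 arrays and were therefore among the 12773 genes tested. Expression was measured on 8 single-colour arrays of CAL-27 cells, an established human line of squamous carcinoma from the head and neck. The cells were starved of serum for 24 h and then kept for 24 h with a protein kinase C inhibitor or without one. The groups were cells given Go (n = 2, dose not given in the labels), cells given 10 µM enzastaurin (n = 3) and control cells (n = 3). All groups share the line and the starvation, and were grown in serum before it. Nothing in the labels says whether the samples of a group came from different cultures, and the p-values therefore reflect the spread among these arrays, which may be technical.

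SREBP-1 (gene SREBF1) mainly drives fatty acid synthesis and SREBP-2 (gene SREBF2) mainly drives cholesterol synthesis. Both are held in the endoplasmic reticulum by the sterol sensor SCAP and the retention proteins INSIG1 and INSIG2, and when sterols run short SCAP carries them to the Golgi, where proteases release the active factor. The genes of sterol synthesis, and INSIG1 itself, are classical targets of the released factors, so their messages are commonly read together, and removal of serum lipoproteins is a standard way to raise them.

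In a list of 14 keratinocyte and general epithelial genes, 14 of 14 were above background on all 8 arrays, the squamous genes KRT5, KRT14 and TP63 among them. CDH1 and EPCAM in that list are general epithelial genes, and EPCAM ranged from 1974 to 11482 over the arrays. The summed unnormalised intensity of the 14 genes was 85592 to 88039 on Go arrays, 106165 to 132382 on enzastaurin arrays and 71443 to 87570 on control arrays. Markers of other cell types were mixed. Of the leukocyte genes, CD3E, CD14 and HLA-DRA were above background on all 8 arrays, and PTPRC and LYZ on none, and the list summed to 1138.5 to 1229.5 on Go arrays, 1743 to 1989 on enzastaurin arrays and 707 to 903 on control arrays. Of 6 fibroblast genes, COL1A1 and LUM were above background on 7 arrays, DCN on 2, COL1A2 and COL3A1 on 1 each and PDGFRB on none, with sums of 136 to 169.5 on Go arrays, 160.5 to 217 on enzastaurin arrays and 99.5 to 135 on control arrays. Of 4 endothelial genes, VWF was above background on all 8 arrays, CDH5 on 2, and PECAM1 and KDR on none, with sums of 69.5 to 168 on Go arrays, 104.5 to 118 on enzastaurin arrays and 111.5 to 127.5 on control arrays. Of 8 liver and fat genes, SERPINA1 was above background on all 8 arrays, ADIPOQ on 5 and ALB, APOA1, TTR, LEP, PLIN1 and FABP4 on none, with sums of 155 to 268.5 on Go arrays, 239 to 320 on enzastaurin arrays and 68 to 86.5 on control arrays. The part of these markers in the results below was not tested. Spot positions place Go 1 with the 3 control arrays on one slide and Go 2 with the 3 enzastaurin arrays on another. Enzastaurin and control arrays therefore share no slide, and results are given below also with the slide as a block. That blocked fit sets Go against control through Go 1 alone and Go against enzastaurin through Go 2 alone, and sets enzastaurin against control only through the difference between Go 1 and Go 2. In these RNA extracts, fewer cells expressing a gene and less RNA per cell cannot be told apart.

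Against enzastaurin, Go-treated cells had lower levels of many genes of the program and higher levels of none that passed the test. Of the 32 genes, 12 were lower and 0 higher at an adjusted p under 0.05 (limma fit of the 3 groups, Benjamini-Hochberg adjustment over all genes), which is 37.5% lower, against 2.96% lower and 4.58% higher among all genes (7.54% called in either direction). At an unadjusted p under 0.05, 19 were lower and 1, SREBF1, was higher, against 10.2% and 15.6% of all genes. The 12 were INSIG1, INSIG2 and the cholesterol carrier STARD4, the sterol enzymes ACAT2, HMGCS1, MVD, SQLE, MSMO1, HSD17B7 and SC5D, and the fatty acid enzymes ACLY and ELOVL6. The median log2 difference was -0.37 over the 6 regulators, -0.51 over the 18 sterol enzymes and -0.28 over the 8 fatty acid enzymes, against 0.04 over all genes. The levels of the Go and enzastaurin arrays did not overlap for 19 lower members and 3 higher members, against 18.9% and 29% of all genes. With the slide as a block, 13 members were lower and 0 higher, against 3.49% and 3.72% of all genes (20 lower and 0 higher at an unadjusted p under 0.05, against 11.5% and 13.2% of all genes). These included 9 of the 12 (ACAT2, MVD and ELOVL6 lost their call) and also IDI1, NSDHL, DHCR7 and FASN. The count fell to 5 members without enzastaurin replicate 1 or without enzastaurin replicate 2, where the share of all genes called fell likewise, to 2% and 1.71%. INSIG1, STARD4, HMGCS1, SQLE and MSMO1 were called whichever array was left out. The MSMO1 probe, however, was above background on neither Go array. MSMO1 was not tested when probes had to be above background on all arrays.

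Against control, Go-treated cells had lower levels of 12 members (37.5%) and higher levels of 2 (6.25%), among 20% of all genes called lower and 11.7% called higher (31.7% in either direction). The lower members were SREBF2, INSIG1, the sterol enzymes MVK, IDI1, CYP51A1, MSMO1, HSD17B7, SC5D and DHCR7, and the lipid enzymes ACLY, FASN and LPIN1. The higher members were the desaturases SCD and FADS2. The class medians were -0.28 for regulators, -0.28 for sterol enzymes and -0.22 for fatty acid enzymes, against -0.11 over all genes. The Go and control levels did not overlap for 17 lower and 2 higher members, against 37.8% and 19.1% of all genes. Go against control kept fewer of its calls than either other comparison when single arrays were left out. The count of 14 members called fell to 6 without control replicate 1 (14.4% of all genes called), to 4 without control replicate 2 (8.09%) and to 4 without Go replicate 2 or with the slide as a block (3.11% of all genes lower and 3.55% higher). It fell to 7 when arrays were scaled to their median (23% of all genes) and to 0 when enzastaurin arrays were left out of the limma fit (1.86%). In that last fit 14 members were lower and 2 higher at an unadjusted p under 0.05, against 22.4% and 12.8% of all genes. INSIG1, IDI1 and MSMO1 were called lower whichever single array was left out, although the MSMO1 probe was above background on neither Go array.

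Against control, enzastaurin-treated cells had higher levels of 11 members (34.4%) and lower levels of 5 (15.6%), in a comparison that called 18.1% of all genes higher and 36.9% lower (55% in either direction). The higher members were INSIG1, INSIG2 and STARD4, the sterol enzymes ACAT2, HMGCS1, MVD, SQLE and LSS, and the fatty acid enzymes SCD, ELOVL6 and FADS2. The lower ones were the regulators SREBF1, SREBF2 and SCAP and the late sterol enzymes TM7SF2 and DHCR7. Class medians were -0.01 for regulators, 0.13 for sterol enzymes and -0.02 for fatty acid enzymes, against -0.14 over all genes, and 14 higher and 8 lower members had levels that did not overlap, against 22.2% and 46.3% of all genes. With arrays scaled to their median, which moved the median of all genes to 0.03, the class medians were 0.22, 0.37 and 0.22 in the same order. Then 17 members were called higher and 1 lower, where 3383 of the 12773 genes were called higher and 2622 lower (47% in either direction). That scaling also moved the share of higher genes among all calls to 56.3%, against 32.8%, while it was 59.4%, against 36.8%, for Go against control, and 36.9%, against 60.7%, for Go against enzastaurin. With the slide as a block only HMGCS1 and SQLE were called higher and no member lower, against 1.39% and 2.36% of all genes. At an unadjusted p under 0.05 that blocked fit had 8 members higher and 1 lower, against 10.1% and 17.4% of all genes.

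**Figure D1:**
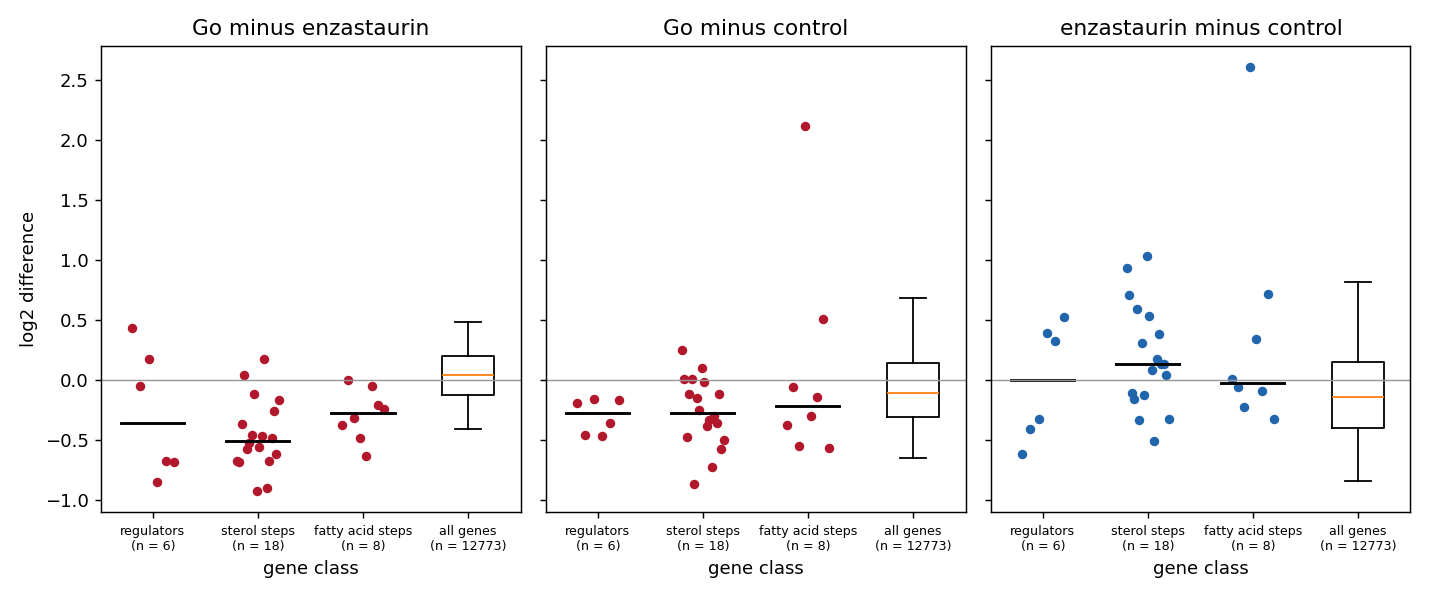
Log2 difference (vertical axis) of each member, by class, for Go minus enzastaurin, Go minus control and enzastaurin minus control. Points are genes, black lines are class medians, and the box gives the quartiles of all 12773 genes with whiskers from the 5th to the 95th percentile. In the Go minus enzastaurin panel the sterol enzymes have a median of -0.51 and 16 of 18 lie below 0, and SCD stands alone at 2.12 and 2.61 in the panels against control.

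The levels of the regulators are given below as log2 normalised intensities, array by array in the order of the replicate numbers, and levels of different probes are not comparable with each other. SREBF1 stood at 14.52 and 14.16 on Go arrays, 13.83, 13.84 and 14.05 on enzastaurin arrays and 14.67, 14.49 and 14.43 on control arrays. Every enzastaurin array was below every Go and control array, while Go and control overlapped. The difference of enzastaurin from control was -0.62 (SE 0.117, adjusted p = 0.00251 in the limma fit). It was -0.27 with the slide as a block (adjusted p = 0.38), and Go exceeded enzastaurin by 0.43 without passing the test (adjusted p = 0.0774). A second, dimmer SREBF1 probe gave -0.31 for enzastaurin against control and did not pass (adjusted p = 0.0884 in a limma fit over probes). On it enzastaurin 3 and control 3 were both at 9.17. SREBF2 stood at 10.64 and 10.38 on Go arrays, 10.57, 10.57 and 10.55 on enzastaurin arrays and 11.15, 10.99 and 10.79 on control arrays, so that all 5 inhibitor arrays were below all 3 controls. Its differences from control were -0.46 for Go (adjusted p = 0.0248) and -0.41 for enzastaurin (adjusted p = 0.0128), and with the slide as a block these were -0.33 (adjusted p = 0.155) and -0.14 (adjusted p = 0.653). Go and enzastaurin differed by -0.05 in SREBF2, with a 95% interval of -0.33 to 0.23. SCAP was at 9.92 and 9.99 on Go arrays, 9.89, 9.8 and 9.68 on enzastaurin arrays and 10.34, 10.13 and 9.89 on control arrays. The lowest control met the highest enzastaurin array, and the difference of -0.33 was called with an adjusted p of 0.0407, which became 0.301 with the slide as a block.

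INSIG1, which retains SCAP in the endoplasmic reticulum, separated all 3 groups. It stood at 9.57 and 9.6 on Go arrays, 10.35, 10.5 and 10.46 on enzastaurin arrays and 9.98, 10.08 and 10.09 on control arrays. Go was lowest and enzastaurin highest, with no overlap. The difference between Go and enzastaurin was -0.85 (SE 0.088, adjusted p = 0.0019), and -0.84 with the slide as a block (adjusted p = 0.00782). Go differed from control by -0.47 (adjusted p = 0.01), and by -0.48 on their common slide (adjusted p = 0.0404). Enzastaurin differed from control by 0.39 (adjusted p = 0.00356), and by 0.36 with the slide as a block (adjusted p = 0.171). INSIG2, the other retention protein, was at 8.55 and 8.2 on Go arrays, 9.12, 9.18 and 8.88 on enzastaurin arrays and 8.72, 8.75 and 8.75 on control arrays. On this probe the 3 groups again did not overlap and kept the same order. Go was lower than enzastaurin by a log2 difference of -0.68 (adjusted p = 0.0164, and 0.0115 with the slide as a block). The difference of -0.36 for Go against control missed the threshold (adjusted p = 0.0564). On a second, dimmer INSIG2 probe the controls overlapped both other groups. It gave -0.28 for Go against enzastaurin and 0.1 for enzastaurin against control (adjusted p = 0.302 and 0.529 in a limma fit over probes). STARD4, a soluble carrier that moves cholesterol between membranes, was at 8.3 and 8.17 on Go arrays, 8.9, 8.89 and 9 on enzastaurin arrays and 8.6, 8.31 and 8.32 on control arrays. The enzastaurin arrays stood above all others and both Go arrays were below all controls. Go differed from enzastaurin by -0.69 (adjusted p = 0.00932, and 0.019 with the slide as a block) and enzastaurin from control by 0.52 (adjusted p = 0.00256, and 0.0854 with the slide as a block). Go and control differed by -0.17 in STARD4 (adjusted p = 0.245).

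**Figure D2:**
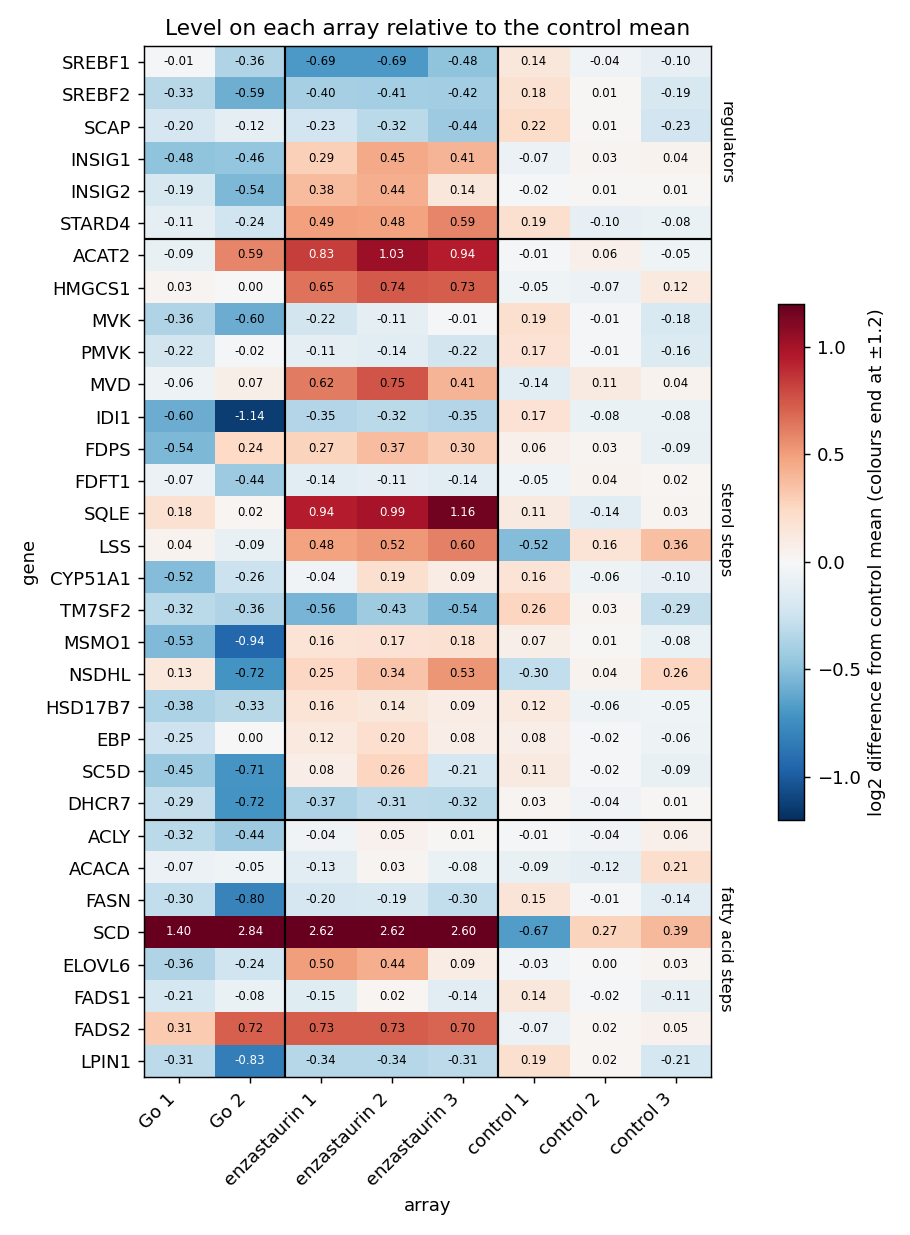
Level of each member (rows, grouped as regulators, sterol steps and fatty acid steps) on each array (columns) as a log2 difference from the mean of the 3 control arrays, printed in each cell, with colours that end at 1.2 in size. INSIG1 is at -0.48 and -0.46 on Go arrays and between 0.29 and 0.45 on enzastaurin arrays, and SQLE is between 0.94 and 1.16 on enzastaurin arrays, against 0.18 and less on the others.

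The promoters of 4 of these genes are shown as examples. They belong to the cholesterol regulator SREBF2 and to 3 genes with called differences between Go and enzastaurin, namely INSIG1, STARD4 and MSMO1. Each is the stretch of 250 bases before the transcript start, written 5′ to 3′ on the gene's strand from RefSeq, build GRCh38.p14, with motif matches on either strand in capitals. The motifs searched were TCACNCCAC (a form of the sterol regulatory element), TCACNTGA (a form of the E-box that SREBPs also bind) and ATTGG with its complement CCAAT (the box bound by NF-Y, a partner of SREBPs). The intervals are chr22:41832855-41833104 on the plus strand for SREBF2, chr7:155297628-155297877 on the plus strand for INSIG1, chr5:111512536-111512785 on the minus strand for STARD4 and chr4:165327419-165327668 on the plus strand for MSMO1.
SREBF2: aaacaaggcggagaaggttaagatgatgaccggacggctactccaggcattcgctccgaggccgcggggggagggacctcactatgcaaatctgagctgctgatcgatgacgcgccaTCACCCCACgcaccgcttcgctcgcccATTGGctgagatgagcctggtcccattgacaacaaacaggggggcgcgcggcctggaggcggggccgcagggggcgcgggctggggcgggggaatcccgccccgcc
INSIG1: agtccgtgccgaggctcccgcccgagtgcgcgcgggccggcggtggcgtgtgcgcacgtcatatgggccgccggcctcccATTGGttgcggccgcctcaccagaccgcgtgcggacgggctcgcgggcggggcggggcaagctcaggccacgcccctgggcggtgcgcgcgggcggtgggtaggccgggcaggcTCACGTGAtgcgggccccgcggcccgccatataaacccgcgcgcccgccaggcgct
STARD4: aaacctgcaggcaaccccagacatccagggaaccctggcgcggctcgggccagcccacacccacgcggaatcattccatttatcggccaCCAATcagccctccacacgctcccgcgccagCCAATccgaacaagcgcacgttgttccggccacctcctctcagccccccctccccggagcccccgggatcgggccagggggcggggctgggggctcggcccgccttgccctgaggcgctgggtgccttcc
MSMO1: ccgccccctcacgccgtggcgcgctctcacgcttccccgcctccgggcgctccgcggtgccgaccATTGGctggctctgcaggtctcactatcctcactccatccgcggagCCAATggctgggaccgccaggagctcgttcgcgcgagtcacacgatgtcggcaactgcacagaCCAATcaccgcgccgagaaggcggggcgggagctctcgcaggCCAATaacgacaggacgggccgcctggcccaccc

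SREBF2 held TCACNCCAC beginning 133 bases before its start, followed by ATTGG at 106 bases. INSIG1 held TCACNTGA beginning 56 bases before its start and ATTGG at 170 bases. STARD4 had 2 CCAAT boxes, beginning 161 and 130 bases before the start, and MSMO1 had 4 matches in either orientation, at 185, 139, 76 and 34 bases. Windows of 300 bases (250 before and 50 after the start) were found for 28 of the 32 members, 40 windows in all. ATTGG or CCAAT occurred in 24 of the 40 (60%), against 34.6% of 35116 windows of the genome. By class it occurred in 15 of 20 windows of sterol enzymes (75%), 6 of 13 windows of fatty acid enzymes (46.2%) and 3 of 7 windows of regulators (42.9%). TCACNCCAC was found in 1 member window, that of SREBF2, against 1.13% of all windows, and TCACNTGA in 2, those of INSIG1 and EBP, against 3.79%. The motifs share no bases in these 4 promoters, and a match is a description of the letters only.

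Among the early enzymes, which build isoprenoid units from acetyl-CoA, 3 were high in enzastaurin-treated cells. HMGCS1, the cytosolic HMG-CoA synthase, stood at 10.84 and 10.81 on Go arrays, 11.45, 11.55 and 11.54 on enzastaurin arrays and 10.76, 10.74 and 10.93 on control arrays. The enzastaurin arrays were well above a level shared by Go and control. Enzastaurin differed from control by 0.71 (SE 0.082, adjusted p = 0.000392, and 0.0463 with the slide as a block), and Go from enzastaurin by -0.69 (adjusted p = 0.00406, and 0.0145 with the slide as a block). Go and control differed by 0.01, with an interval of -0.19 to 0.22. The second HMGCS1 probe gave -0.91 for Go against enzastaurin and 0.56 for enzastaurin against control, but -0.35 for Go against control. ACAT2, the cytosolic acetoacetyl-CoA thiolase, was at 12.11 and 12.79 on Go arrays, 13.03, 13.23 and 13.14 on enzastaurin arrays and 12.19, 12.26 and 12.15 on control arrays. The Go arrays disagreed on this probe, Go 1 lying below the controls and Go 2 between controls and enzastaurin. The difference of enzastaurin from control was 0.93 (adjusted p = 0.00142) but 0.25 with the slide as a block (adjusted p = 0.33), and that of Go from enzastaurin was -0.68 (adjusted p = 0.0475) but -0.34 with the block (adjusted p = 0.107). MVD, which decarboxylates mevalonate diphosphate, was at 8.61 and 8.74 on Go arrays, 9.29, 9.41 and 9.07 on enzastaurin arrays and 8.52, 8.77 and 8.7 on control arrays. Only the enzastaurin arrays stood apart, by 0.59 over control (adjusted p = 0.00231, and 0.203 with the block), and Go differed from them by -0.58 (adjusted p = 0.0248, and 0.0767 with the block).

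IDI1, the isomerase of isopentenyl diphosphate, followed another order. It stood at 10.51 and 9.97 on Go arrays, 10.76, 10.79 and 10.76 on enzastaurin arrays and 11.28, 11.03 and 11.03 on control arrays, with no overlap between the groups. Go was lower than control by a log2 difference of -0.87 (SE 0.153, adjusted p = 0.00825), and of -0.6 on their common slide (adjusted p = 0.0307). Go against enzastaurin gave -0.53 (adjusted p = 0.068) and, with the slide as a block, -0.8 (adjusted p = 0.0123). Enzastaurin against control gave -0.34 (adjusted p = 0.0605). MVK, mevalonate kinase, was lower in Go than in control by -0.48 (adjusted p = 0.0262), a call lost with the slide as a block (-0.36, adjusted p = 0.157). PMVK, the next kinase, was called in no comparison, with differences between -0.16 and 0.04. FDPS, farnesyl diphosphate synthase, was at 12.7 and 13.49 on the Go arrays, 0.79 apart, and was not called in any comparison. Go against control gave -0.54 in FDPS with the slide as a block (adjusted p = 0.0252).

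SQLE, squalene epoxidase, the first oxygen-requiring step of sterol synthesis, had the largest difference of the 18 sterol enzymes for enzastaurin against control, in the fit without the slide. Its level was 11.63 and 11.47 on Go arrays, 12.39, 12.44 and 12.61 on enzastaurin arrays and 11.56, 11.31 and 11.48 on control arrays. Go and control overlapped and every enzastaurin array was above them. Enzastaurin against control gave 1.03 (SE 0.1, a 2.04-fold higher value, adjusted p = 0.000253), and 1.19 with the slide as a block (adjusted p = 0.0202). Go against enzastaurin gave -0.93 (SE 0.112, adjusted p = 0.00276), and -1.01 on their common slide (adjusted p = 0.00816). Go against control gave 0.1 in SQLE, with an interval of -0.15 to 0.35. FDFT1, squalene synthase, the step before it, was called in no comparison, with differences between -0.25 and -0.12, although Go against control was called without Go replicate 1 (-0.44, adjusted p = 0.0099). LSS, lanosterol synthase, the step after it, was at 11.46 and 11.32 on Go arrays, 11.89, 11.94 and 12.01 on enzastaurin arrays and 10.89, 11.57 and 11.78 on control arrays. The controls spanned 0.89 and the difference of 0.53 for enzastaurin against control was called with an adjusted p of 0.0426, which became 0.306 with the slide as a block. The other 3 LSS probes gave 0.74, 0.77 and -0.14 for the same difference. Their control means were 7.01, 6.54 and 11.47, against 11.41 for the probe that stands for the gene. For Go against control the probe with the control mean of 11.47 gave -0.59 (adjusted p = 0.0106 in a limma fit over probes). The probe that stands for the gene gave -0.02 there, and the 2 dimmer probes gave 0.31 and 0.43.

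**Figure D3:**
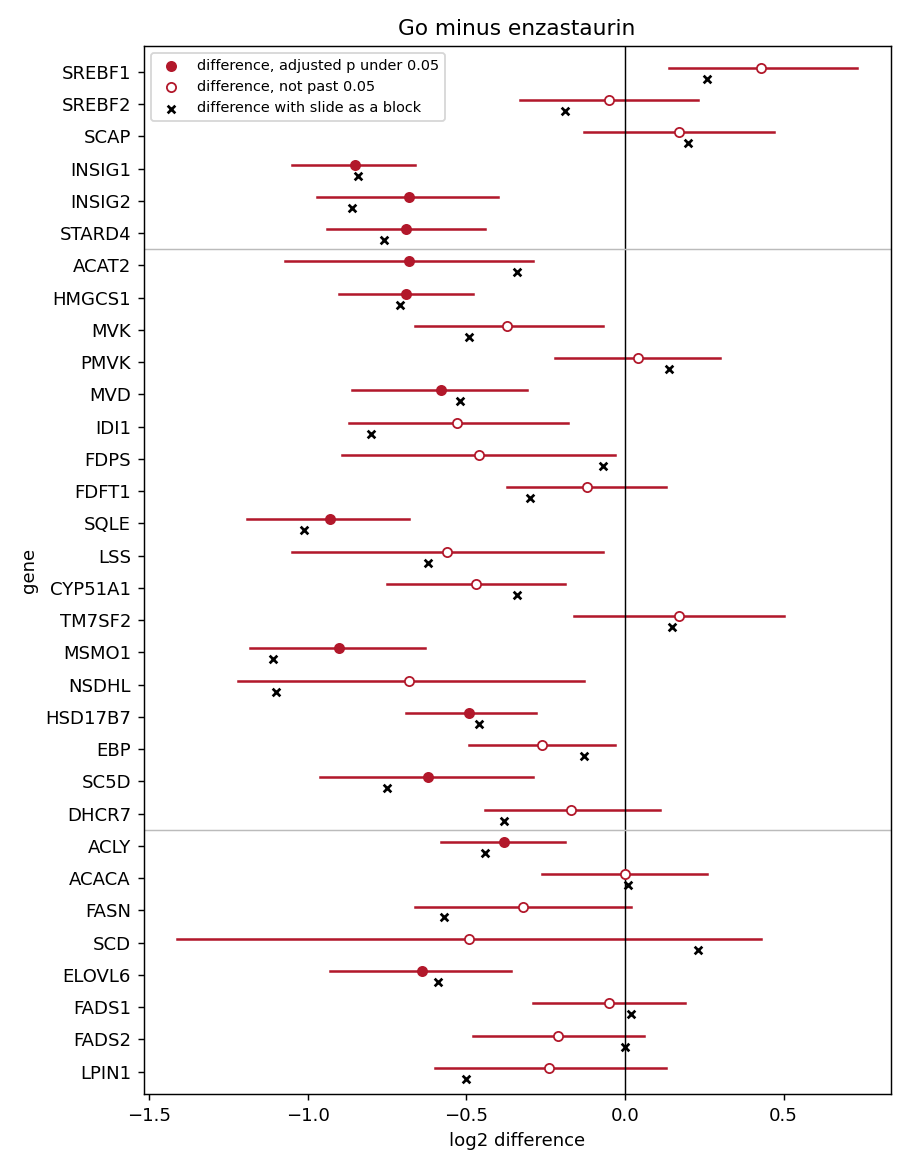
Log2 difference of Go minus enzastaurin (horizontal axis) for each member (rows) with its 95% interval. Filled circles passed an adjusted p of 0.05, open circles did not, and crosses give the value with the slide as a block, from Go 2 and the 3 enzastaurin arrays. The filled circles lie between -0.93 for SQLE and -0.38 for ACLY, and the point farthest above 0 is SREBF1 at 0.43.

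The enzymes after lanosterol remove its extra methyl groups and reshape its double bonds. Of these, MSMO1, HSD17B7 and SC5D were lower in Go-treated cells than in both other groups on the probes that stand for them. In a limma fit over probes, a second HSD17B7 probe gave -0.3 against enzastaurin (adjusted p = 0.242) and -0.53 against control (adjusted p = 0.0266). A second SC5D probe gave -0.49 against enzastaurin (adjusted p = 0.0463) and -0.21 against control (adjusted p = 0.168). MSMO1, the oxidase of the methyl groups at carbon C4, stood at 7.84 and 7.43 on Go arrays, 8.53, 8.54 and 8.55 on enzastaurin arrays and 8.44, 8.38 and 8.29 on control arrays. The Go arrays were lowest, and the spot was not above local background on either of them, so that only a bound can be given. The bound takes the higher of the probe's own value and the lowest signal above background on each Go array. Here it equalled the measured difference of the means and takes no account of the spread of the arrays. The bound for MSMO1 was a 1.87-fold lower level in Go than in enzastaurin. The limma fit gave a log2 difference of -0.9 (interval -1.18 to -0.63, adjusted p = 0.00431). Against control the bound was 1.66-fold lower, and the fit gave a log2 difference of -0.73 (interval -1.01 to -0.46, adjusted p = 0.00734). With the slide as a block the adjusted p was 0.0045 and 0.0247. A second, dimmer MSMO1 probe, which was above background on both Go arrays, gave -0.24 for Go against enzastaurin, and 0.39 for Go against control, which is the opposite direction. With the mean of the probes the MSMO1 call against control was lost and that against enzastaurin was kept (log2 difference -0.57). SC5D, the sterol C5 desaturase, stood at 9.51 and 9.25 on Go arrays, 10.04, 10.22 and 9.74 on enzastaurin arrays and 10.07, 9.93 and 9.87 on control arrays. Both Go arrays were below the other 6, by -0.62 from enzastaurin (adjusted p = 0.0365, and 0.0402 with the block) and -0.58 from control (adjusted p = 0.0212, and 0.132 with the block). HSD17B7, a 3-ketosterol reductase, differed by -0.49 from enzastaurin (adjusted p = 0.0156) and by -0.36 from control (adjusted p = 0.0212) in Go-treated cells, and with the slide as a block the adjusted p was 0.0442 and 0.0735.

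DHCR7, the reductase of 7-dehydrocholesterol, was at 14.01 and 13.58 on Go arrays, 13.93, 13.99 and 13.98 on enzastaurin arrays and 14.33, 14.26 and 14.31 on control arrays. All 5 inhibitor arrays were below all controls, by -0.5 for Go (adjusted p = 0.019) and -0.33 for enzastaurin (adjusted p = 0.0278). With the slide as a block the Go difference was -0.29 (adjusted p = 0.0988) and the enzastaurin difference changed sign, to 0.1 (adjusted p = 0.662). TM7SF2, a sterol C14 reductase, was at 10.93 and 10.89 on Go arrays, 10.69, 10.82 and 10.71 on enzastaurin arrays and 11.51, 11.29 and 10.96 on control arrays. The order ran from control down to enzastaurin with no overlap, and the difference of enzastaurin from control was -0.51 (adjusted p = 0.00975, and 0.282 with the slide as a block). CYP51A1, the lanosterol demethylase, differed in Go from control by -0.39 (adjusted p = 0.0412), a call that was lost in 15 of 19 alternatives, the slide as a block among them (adjusted p = 0.0618). NSDHL, a dehydrogenase that acts after MSMO1, was at 8.55 and 7.7 on the Go arrays, 0.85 apart, and was not called in any comparison. Go against enzastaurin gave -1.1 in NSDHL with the slide as a block (adjusted p = 0.0207). EBP, the sterol isomerase, was called in no comparison, with differences between -0.26 and 0.13.

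The fatty acid branch did not move as one. ACLY, which supplies acetyl-CoA from citrate, differed in Go by -0.38 from enzastaurin (adjusted p = 0.0312) and by -0.38 from control (adjusted p = 0.016), and with the slide as a block the adjusted p was 0.0357 and 0.0881. In ACLY enzastaurin differed from control by 0.01. FASN, the fatty acid synthase, stood at 7.56 and 7.06 on Go arrays, 7.66, 7.67 and 7.56 on enzastaurin arrays and 8.01, 7.85 and 7.72 on control arrays. Go lay below control by a difference of -0.55 (adjusted p = 0.0261, and 0.161 with the block), and its higher array met the lowest enzastaurin array. Go against enzastaurin gave -0.32 in FASN (adjusted p = 0.214) and -0.57 with the slide as a block (adjusted p = 0.0367). ACACA, acetyl-CoA carboxylase, was above background on only 1 of the 2 Go arrays and was called in no comparison, with differences between -0.06 and 0. LPIN1, a phosphatidate phosphatase of triglyceride synthesis, was at 9.95 and 9.43 on Go arrays, 9.92, 9.91 and 9.95 on enzastaurin arrays and 10.45, 10.28 and 10.04 on control arrays. All inhibitor arrays were below all controls, and Go differed from control by -0.57 (adjusted p = 0.0303, and 0.2 with the block) while enzastaurin, at -0.33, did not pass (adjusted p = 0.0805).

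The elongase and the desaturases moved differently. ELOVL6, the elongase of saturated fatty acids, was at 7.7 and 7.81 on Go arrays, 8.56, 8.5 and 8.15 on enzastaurin arrays and 8.02, 8.06 and 8.09 on control arrays. The 3 groups did not overlap, with Go lowest and enzastaurin highest, as for INSIG1. Go against enzastaurin gave -0.64 (adjusted p = 0.0184, and 0.06 with the block) and enzastaurin against control 0.34 (adjusted p = 0.0273, and 0.517 with the block). FADS2, the delta-6 desaturase of polyunsaturated fatty acids, stood at 7.63 and 8.04 on Go arrays, 8.06, 8.06 and 8.02 on enzastaurin arrays and 7.25, 7.34 and 7.38 on control arrays. All 5 inhibitor arrays were above all controls, by 0.51 for Go (adjusted p = 0.0171, and 0.0904 with the block) and 0.72 for enzastaurin (adjusted p = 0.000889, and 0.187 with the block). FADS1, the delta-5 desaturase, was called in no comparison, with differences between -0.14 and -0.05.

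SCD, the stearoyl-CoA desaturase that makes monounsaturated fatty acids, had the largest differences from control of the 32 genes in the fit without the slide, but they rested on 1 of its 3 probes. That probe stood at 10.05 and 11.49 on Go arrays, 11.27, 11.27 and 11.25 on enzastaurin arrays and 7.99, 8.92 and 9.04 on control arrays, and it was above background on 1 of the 3 controls. All inhibitor arrays were above all controls, and the Go arrays differed by 1.45 from each other. The differences from control were 2.12 for Go (SE 0.406, adjusted p = 0.0105) and 2.61 for enzastaurin (SE 0.363, adjusted p = 0.000717), and with the slide as a block they were 1.4 (adjusted p = 0.0505) and 1.17 (adjusted p = 0.167). A probe above background on all 8 arrays stood at 8.78 and 8.69 on Go arrays, 8.86, 8.91 and 8.78 on enzastaurin arrays and 9.28, 9.13 and 8.84 on control arrays. Against control it gave -0.35 for Go and -0.24 for enzastaurin, the opposite direction, and in a fit of probes above background on all arrays these did not pass (adjusted p = 0.0601 and 0.104). The remaining dim probe gave -0.18 and 0.11. No direction against control was shared by all 3 SCD probes.

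**Figure D4:**
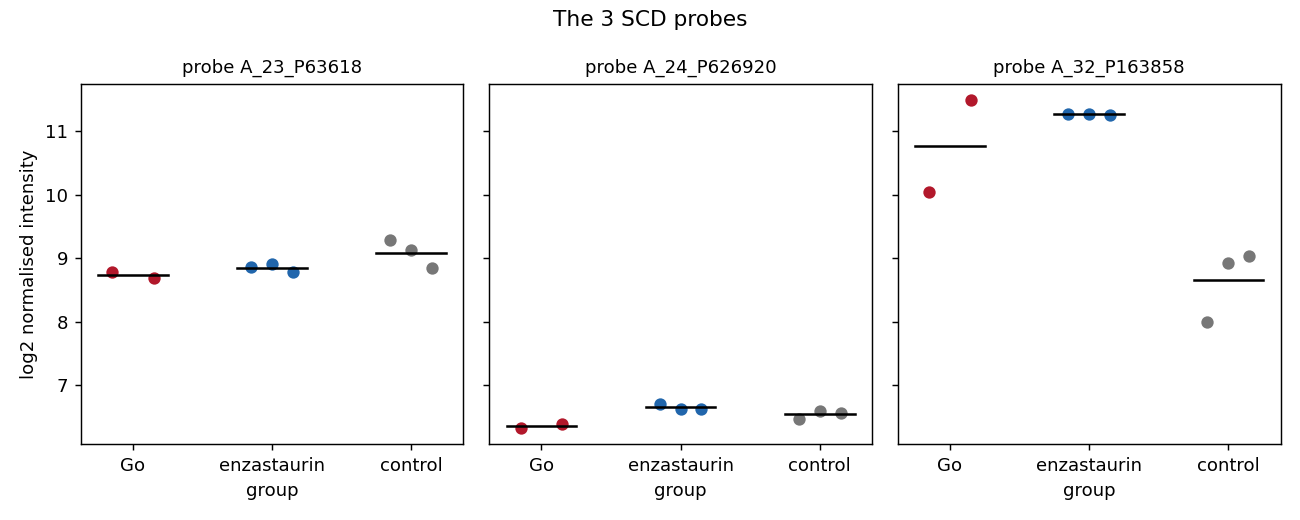
Log2 normalised intensity (vertical axis) of the 3 SCD probes on each Go, enzastaurin and control array. Points are arrays and lines are group means. The right panel shows the probe that stands for the gene, with Go arrays at 10.05 and 11.49 against controls between 7.99 and 9.04, while the left panel shows Go arrays at 8.78 and 8.69 against controls between 8.84 and 9.28.

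Probes of 1 gene were compared for the 15 members that had several tested probes. All tested probes of a gene had the same sign for 12 of the 15 in Go against enzastaurin (exceptions ACACA, FADS2 and TM7SF2), 10 in Go against control and 7 in enzastaurin against control. In that last comparison the probes of ACACA, FADS1, FADS2, HSD17B7, LSS, MVK, SCD and TM7SF2 were opposed.

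**Figure D5:**
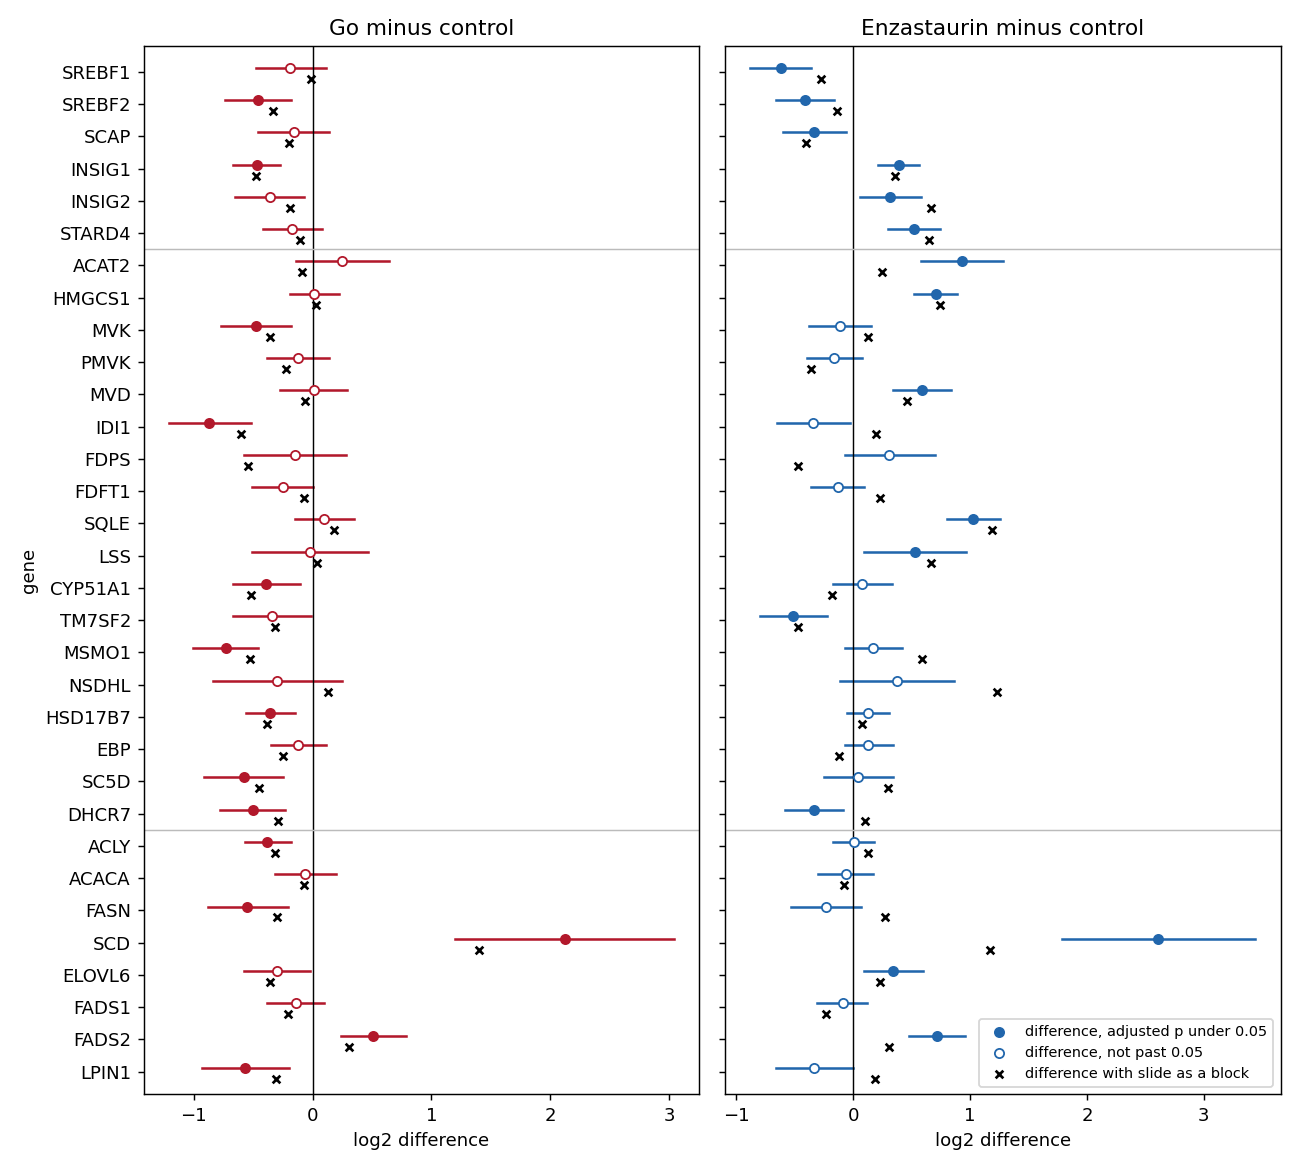
Log2 difference of Go minus control (left) and enzastaurin minus control (right) for each member (rows), with 95% intervals. Filled circles passed an adjusted p of 0.05, open circles did not, and crosses give the value with the slide as a block. SQLE is at 0.1 on the left and 1.03 on the right, and IDI1 at -0.87 on the left and -0.34 on the right. Both panels share the 3 control arrays.

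Genes around the program were counted in lists, to be read against 4.58% of all genes higher and 2.96% lower in Go against enzastaurin, 11.7% and 20% in Go against control, and 18.1% and 36.9% in enzastaurin against control. Of 12 tested genes of SREBP processing and turnover, 0 were called in Go against enzastaurin by limma (1 was lower at an unadjusted p under 0.05). Against control, 3 rose and 2 fell with Go and 4 rose and 1 fell with enzastaurin. Of these calls, 1 was left with Go and 0 with enzastaurin when the slide was a block, and for enzastaurin 1 gene was then higher and 0 lower at an unadjusted p under 0.05. MBTPS1, the site-1 protease that cuts SREBPs, rose by 0.89 with Go (adjusted p = 0.00482, and 0.0147 with the block). With enzastaurin its difference was 0.69 (adjusted p = 0.0014), but 0.28 with the block (adjusted p = 0.287). Of 11 other sterol and isoprenoid genes, 0 were higher and 2 lower in Go against enzastaurin. Against control, 2 rose and 2 fell with Go, and 3 rose and 2 fell with enzastaurin. GGPS1, geranylgeranyl diphosphate synthase, differed from control by 0.43 with Go (adjusted p = 0.0111, and 0.0517 with the block) and by 0.73 with enzastaurin (adjusted p = 3e-04, and 0.0431 with the block).

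Of 14 genes of sterol uptake and trafficking, 1 was higher and 1 lower in Go against enzastaurin. OSBPL5, an oxysterol-binding protein relative, differed by 0.61 (adjusted p = 0.021, and 0.0372 with the block) and VLDLR, a lipoprotein receptor, by -0.49 (adjusted p = 0.0316, and 0.0214 with the block). In the same list 2 rose and 3 fell in Go against control and 4 rose and 4 fell in enzastaurin against control. LIPA, the lysosomal lipase that frees cholesterol from its esters, differed from control by 0.86 with Go (adjusted p = 0.00971, and 0.0445 with the block) and by 1.03 with enzastaurin (adjusted p = 0.000684, and 0.0721 with the block).

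Of 18 other genes of fatty acid and glyceride synthesis, 2 were higher and 0 lower in Go against enzastaurin. The desaturase SCD5 differed by 0.58 (adjusted p = 0.00714, and 0.0198 with the block) and the acyltransferase DGAT2 by 0.4 (adjusted p = 0.0343, and 0.0821 with the block). Neither was higher with Go than in control, where SCD5 was at -0.08 (adjusted p = 0.491) and DGAT2 was called lower, at -0.42 (adjusted p = 0.015, and 0.0755 with the block). In that list 1 rose and 5 fell in Go against control, with ACSL1, a fatty acyl-CoA ligase, at -0.53 (adjusted p = 0.0129, and 0.0758 with the block). In enzastaurin against control 2 rose and 6 fell, with DGAT2 at -0.82 and SCD5 at -0.66, both called also with the block (adjusted p = 0.0431 and 0.0483). Of 19 genes of fatty acid oxidation, 1 was higher and 0 lower in Go against enzastaurin. It was CPT1A, the carnitine palmitoyltransferase of entry into mitochondria, at 0.57 (adjusted p = 0.032, and 0.0691 with the block). From control CPT1A differed by 0.16 with Go (adjusted p = 0.356) and by -0.41 with enzastaurin (adjusted p = 0.0142, and 0.258 with the block). Against control, 2 rose and 3 fell with Go and 2 rose and 7 fell with enzastaurin. PDK4, a pyruvate dehydrogenase kinase, differed by -0.51 with either inhibitor and was called also with the block (adjusted p = 0.0115 with Go and 0.0335 with enzastaurin). The medians of the lists in these comparisons lay between -0.25 and 0.08.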

How the data were processed

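Gene expression was measured on 8 single-colour arrays. The authors deposited a table of background-subtracted intensity per probe, linear, floored at 0.5 and not normalised between arrays, as comparison with the scanner tables showed. Those tables came from GenePix, per the file headers, with foreground and background intensity, a signal-to-noise score, the percent of saturated pixels and spot positions. The labels name Cy3, the headers a channel of longer wavelength. How the authors made the table is not given in the sources used here. Their annotation is in reverse order relative to the spots: the rank correlation with the value table was 0.0073 to 0.013 as deposited and 0.9904 to 0.9937 once reversed, so values were taken by probe identifier from the authors' table.

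Values were transformed as log2(value + 50) and quantile normalised over 41000 probes, so a fold of a dim gene is understated. A probe was tested if its signal-to-noise score exceeded 3 on at least 2 arrays. Each gene was read from its probe of highest mean (27137 probes were named, through RefSeq accessions, symbols or the file). Array medians were 38 to 56 before normalisation, 52.1% to 57.3% of probes were above background, and no member was saturated. The number of arrays limits the precision. Genes were tested with limma 3.58.1 in R 4.3.3 (3 groups, 5 residual and 3.99 prior degrees of freedom) and p-values adjusted by Benjamini-Hochberg over 12773 genes, at a threshold of 0.05. Differences are Go or enzastaurin minus control, or Go minus enzastaurin, and intervals are 95%. The test was tested on simulated data, the outcome of which is not reported here. Slides were inferred from spot positions, 4 arrays on each, and are not in the labels.

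The members, classes and lists were chosen with earlier results of these data known. Array values are given for members called with a log2 difference of at least 0.5 in size and for SREBF1, SREBF2, SCAP, INSIG1, HMGCS1, SQLE, FASN and SCD. Of each list, at most 4 called genes per comparison are named; some list members are not reported here. Alternatives changed the source of the values, the pseudocount, the scaling, the filter, the choice of probe, the samples in the fit, the slide, the replicate block and each replicate.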

Additional observations from a re-analysis of the deposited data

How the results depend on the processing

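Of 1818 values of members under alternative settings, 1526 kept direction and side of the threshold, 165 kept direction but lost the call, 56 gained one, 68 changed sign with no call in either fit, and 3 called values changed sign: SCD to -0.24 (enzastaurin against control) and -0.35 (Go against control) in probes above background on all arrays, where another SCD probe stands for the gene, and DHCR7 to 0.1 (enzastaurin against control) with the slide as a block. Go against enzastaurin called 10 to 15 members lower and 0 higher under the 11 settings other than single arrays left out, in which 4.18% to 9.83% of all genes were called. With the slide as a block, enzastaurin against control called 479 genes and 2 members and Go against control 851 genes and 4 members. With only the compared groups in the fit, Go against control called 237 genes and 0 members, in a fit of 5 arrays. Scaling to the median left 7 members in Go against control, where 23% of all genes were called. Some of the 1818 values repeat another fit. For enzastaurin against control, leaving out either Go array gave the same counts as the fit of only the compared groups. The slide block gave the same counts as leaving out Go replicate 2 for Go against control, and Go replicate 1 for Go against enzastaurin. Leaving out 1 replicate at a time gave 5346 to 7695 genes and 11 to 20 members for enzastaurin against control, 851 to 5423 genes and 4 to 17 members for Go against control, and 219 to 1679 genes and 5 to 15 members for Go against enzastaurin; a lone Go array is assumed to vary like the other groups. Same-numbered arrays correlated in their deviations between -0.147 and 0.175, so the numbers were not taken to pair the samples. With a replicate block 17 members were called in enzastaurin against control, where 54.4% of all genes were called, and 14 in Go against control (34.9%). In Go against enzastaurin 11 were called (534 genes, 4.18%). Other changes were not traced to a cause; the cause was not tested.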

Other observations

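The LXR list holds the oxysterol-activated receptors, their partners and targets, which promote cholesterol export. Of its 11 tested genes, 3 were higher and 0 lower in Go against enzastaurin, against 4.58% and 2.96% of all genes. The median log2 difference of the list was 0.25. The 3 higher genes are given next. These were ABCG1, a sterol exporter, by 0.76 (adjusted p = 0.0213 in the limma fit), RXRB, a receptor partner, by 0.56 (adjusted p = 0.0248) and NR1H3, the receptor LXR-alpha, by 0.52 (adjusted p = 0.0131). With the slide as a block ABCG1 and NR1H3 kept their calls (adjusted p = 0.0336 and 0.0409) and RXRB did not (adjusted p = 0.0755). In that blocked fit 1 gene of the list was called lower, where 3.49% of all genes were lower. Against control, 0 rose and 3 fell with Go, where 20% of all genes were lower. Among them was LPCAT3, a phospholipid acyltransferase, by -0.61 (adjusted p = 0.0277, and 0.154 with the slide as a block). ABCG1, RXRB and NR1H3 were not called in Go against control, at -0.06, -0.28 and -0.12 (adjusted p = 0.764, 0.0931 and 0.335). With enzastaurin 0 rose and 8 fell against control, where 36.9% of all genes were lower. Among these were NR1H2, the receptor LXR-beta, by -1.47 (adjusted p = 0.0027) and ABCG1 by -0.83 (adjusted p = 0.00141). RXRB, by -0.84 (adjusted p = 0.000489), and NR1H3, by -0.64 (adjusted p = 0.000528), were also among these. With the slide as a block NR1H2, ABCG1, RXRB and NR1H3 lost their calls in that comparison (adjusted p = 0.468, 0.0647, 0.103 and 0.0823).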
